A study of Homo sapiens with 2 samples.

Results

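The genes described are the cyclins, the cyclin-dependent kinases (CDKs), the CDK inhibitors and the E2F and RB genes that together drive a cell from G1 through S phase into mitosis. They were taken as a list of 44 gene symbols, each measured by the array row that carries that symbol alone. A single such row was found for 43 of them, among 22410 genes named in all, and CDKN2C was not analysed here. Expression was measured in NCI-N87, a human gastric carcinoma cell line with amplified ERBB2 (the gene of HER2), on 2 Affymetrix Human Transcriptome Arrays. The first array held RNA of the untreated parental line and the second RNA of a line labelled as TDM-1 resistant, where TDM-1 is taken to be trastuzumab emtansine (usually written T-DM1), a HER2 antibody that carries a microtubule poison into the cell. The labels give both arrays the same cell line, growth conditions and RNA preparation, and state neither a dose nor whether cells were harvested with the drug. The number of clones and the density of the cultures are not stated either.

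A cell commits to division when D-type cyclins with CDK4 or CDK6, and then cyclin E with CDK2, phosphorylate the pocket proteins RB1, RBL1 and RBL2. Phosphorylated pocket proteins release E2F factors, which switch on genes for DNA synthesis and, in later waves, genes for mitosis. Cyclin A with CDK2 or CDK1, and cyclin B with CDK1, carry the cell through S, G2 and M. Inhibitors of the INK4 family bind CDK4 and CDK6, inhibitors of the CIP/KIP family bind cyclin-CDK complexes more widely, and T-DM1 acts on dividing cells by blocking the spindle in mitosis.

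The array is read in 1 colour. With 1 array per group, no difference could be set against variation between cultures, and none has a standard error or a p-value; precision is limited by the number of arrays. Values are the authors' deposited ones, taken as log2, and every difference is taken as resistant minus parental. A gene was called higher or lower when its difference was at least 1, nominally 2-fold, and the higher of its values reached a floor of 5.79, set at the median, over all named genes, of the higher of both values. Medians over all rows were 4.76 on both arrays, and genes that reached the floor had a median difference of 0.01 with quartiles of -0.40 and 0.43. Among control rows, the largest absolute difference was 1.45 over 23 background rows, above the threshold. It was 0.14 over 3 bio rows and 0.01 for 1 cre row. Whether the background rows reached the floor was not computed. The epithelial markers chosen for the line (9, among them EPCAM and KRT8) all reached the floor, although CDH17 did so on the resistant array only, and CDH1 was called lower and CDH17 higher. The defining markers of immune cells (4 measured), fibroblasts (4) and endothelium (5) all lay under the floor, the highest at 4.88.

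Of the 43 genes measured, 15 were called higher on the resistant array and 4 lower, against 4.79% and 4.56% of all named genes. Over the 38 that reached the floor the comparable background was 9.58% higher and 9.12% lower, a count that E2F2 entered through its resistant value alone. The median difference of the 43 was 0.56, against 0.03 over all genes, and 32 were positive and 11 negative. The genes called higher included CDK1, 4 cyclins of S phase, G2 and mitosis, and E2F8, and the genes called lower were RB1 and 3 CDK inhibitors. More cells in a given phase and more RNA per cell cannot be told apart in RNA from whole cultures.

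**Figure D1:**
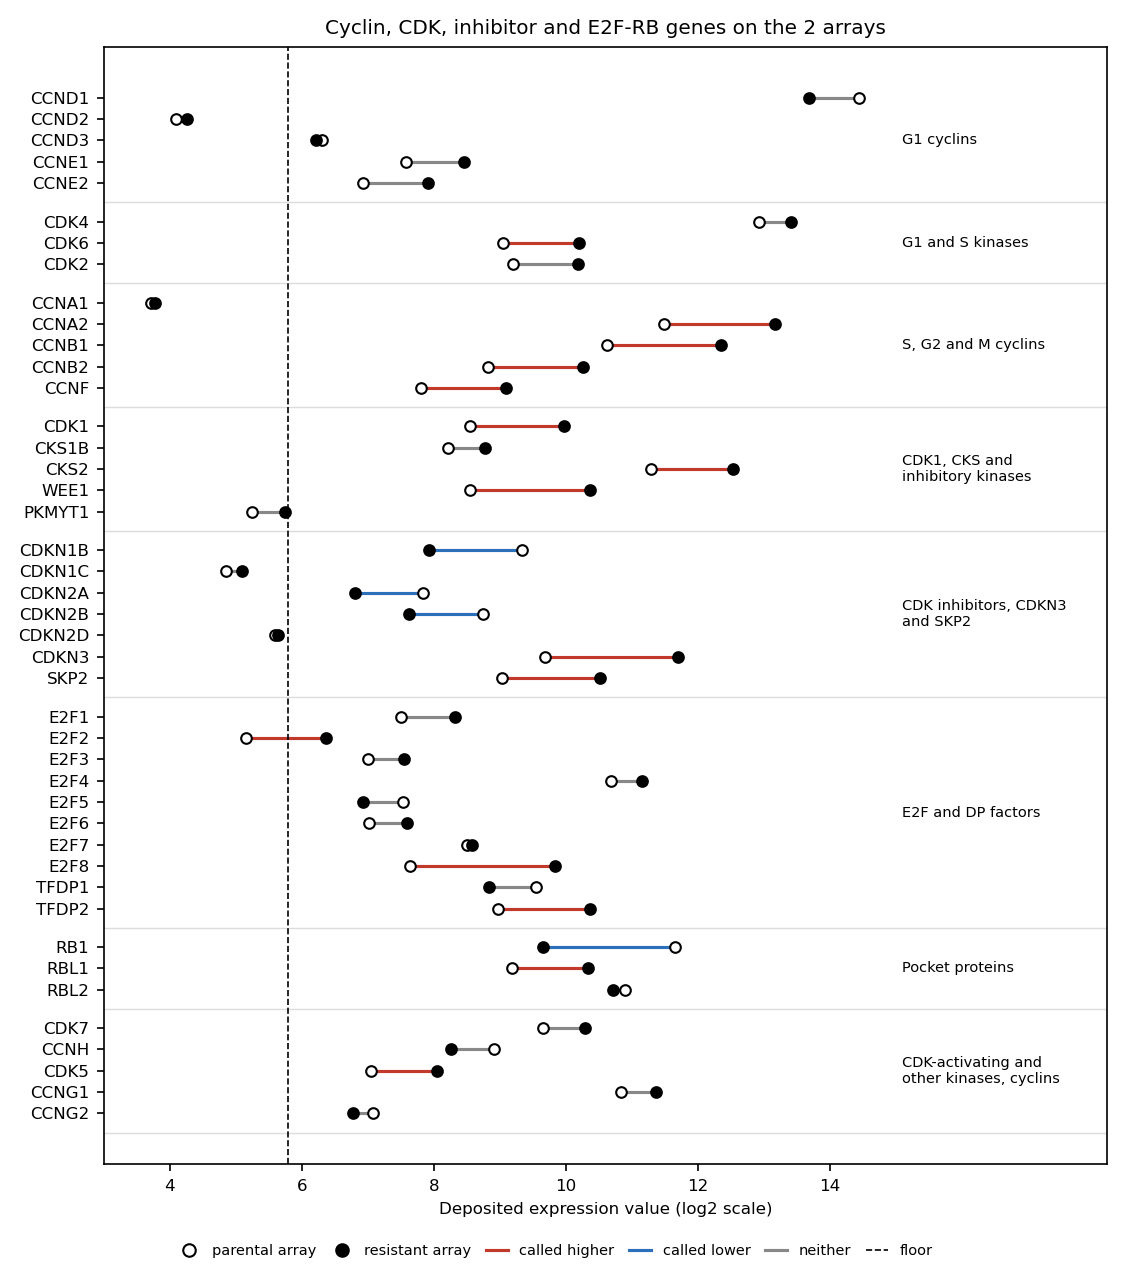
Deposited expression value (log2 scale) of each of the 43 genes on the parental (open circle) and the resistant array (filled circle), by role, with 1 array per group and no error bars. Line colour marks the call, and the dashed line is the floor of 5.79. CCNA2, CCNB1, CCNB2 and CCNF lie to the right on the resistant array, and RB1, CDKN1B, CDKN2A and CDKN2B to the left.

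The cyclins of S phase, G2 and mitosis had the highest median difference of the 8 roles, 1.45. CCNB1, the main mitotic partner of CDK1, was 10.6 in the parental line and 12.4 in the resistant line, a difference of 1.74. CCNA2, the cyclin of S phase and G2, was 11.5 and 13.2, a difference of 1.67. CCNB2, the second B-type cyclin, was 8.82 and 10.3 (1.45). CCNF, which despite its name activates no CDK and serves as a substrate receptor of an SCF ubiquitin ligase, was 7.81 and 9.09 (1.28). These 4 genes, which lie on 4 chromosomes, were all called higher. CCNA1, the germline cyclin A, was under the floor in both lines (3.72 and 3.77).

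Their kinase and its small subunits followed the same direction. CDK1 was 8.55 in the parental line and 9.97 in the resistant line, a difference of 1.42. The CKS proteins are small adaptors that dock CDKs onto phosphorylated substrates. CKS2 was called higher at 11.3 and 12.5 (1.24), whereas CKS1B, which also serves SKP2 as a cofactor, was not called at 8.22 and 8.78 (0.56). The kinases that hold CDK1 inactive until mitosis lay on the same side. WEE1, in the nucleus, was 8.55 and 10.4, a difference of 1.82, the highest of this role. Less the median of its neighbours on chromosome 11, WEE1 differed by 1.31 and was still called. So corrected, CDK1 (1.42) and CKS2 (1.41) were above it. PKMYT1, the relative of WEE1 on internal membranes, was 5.25 and 5.74 (0.50), under the floor on both arrays. The activating phosphatases that remove the WEE1 mark were called higher as well, all 3 of them. CDC25B was 6.66 and 9.41 (2.74), CDC25A 5.98 and 7.43 (1.45) and CDC25C 7.38 and 8.63 (1.25). CDC25A differed by 0.92 less the median of its neighbours on chromosome 3, under the threshold. With CABLES1 they were the 4 called higher among 11 further CDK regulators measured, of which 9 reached the floor, where the background is 9.58%.

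Promoters of genes of this wave are known to carry an element named CHR, bound by the MuvB complex, together with CCAAT boxes, while genes of the earlier wave carry E2F sites. The windows below are from RefSeq (GRCh38.p14). CDK1, CCNB2, CDKN3 and RBL1 are shown as genes called higher whose windows hold a CHR or E2F match. CDKN1B is shown because it was called lower by the widest margin below the median of the genes around it. Each runs 5′ to 3′ on the gene's strand, from 250 bases before to 50 bases after an annotated start. Capitals mark, on either strand, the CHR letters TTTGAA, the letters CCAAT, and any of the E2F letters TTTCCCGC, TTTCGCGC, TTTGCCGC or TTTGGCGC, none of which overlapped another kind here. The windows are chr10:60778228-60778527 on the plus strand for CDK1 (the second of its annotated starts), chr15:59104896-59105195 plus for CCNB2, chr14:54396757-54397056 plus for CDKN3, chr20:37095948-37096247 minus for RBL1 and chr12:12717118-12717417 plus for CDKN1B.
CDK1: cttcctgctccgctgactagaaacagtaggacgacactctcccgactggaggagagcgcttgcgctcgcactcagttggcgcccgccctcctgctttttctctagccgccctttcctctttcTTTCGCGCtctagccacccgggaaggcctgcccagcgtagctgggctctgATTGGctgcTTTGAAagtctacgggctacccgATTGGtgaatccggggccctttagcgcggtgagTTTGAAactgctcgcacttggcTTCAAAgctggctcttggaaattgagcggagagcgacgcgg
CCNB2: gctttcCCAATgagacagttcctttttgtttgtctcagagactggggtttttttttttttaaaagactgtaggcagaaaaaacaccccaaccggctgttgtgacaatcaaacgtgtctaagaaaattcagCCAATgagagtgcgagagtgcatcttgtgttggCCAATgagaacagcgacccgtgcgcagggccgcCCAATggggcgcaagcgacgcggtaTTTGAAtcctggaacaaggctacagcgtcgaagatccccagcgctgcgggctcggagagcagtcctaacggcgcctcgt
CDKN3: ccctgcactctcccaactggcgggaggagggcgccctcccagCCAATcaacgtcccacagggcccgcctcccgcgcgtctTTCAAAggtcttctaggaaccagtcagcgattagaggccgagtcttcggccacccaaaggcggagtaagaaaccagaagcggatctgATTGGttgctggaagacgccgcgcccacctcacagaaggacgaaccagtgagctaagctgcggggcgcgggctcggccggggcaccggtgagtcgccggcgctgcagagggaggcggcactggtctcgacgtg
RBL1: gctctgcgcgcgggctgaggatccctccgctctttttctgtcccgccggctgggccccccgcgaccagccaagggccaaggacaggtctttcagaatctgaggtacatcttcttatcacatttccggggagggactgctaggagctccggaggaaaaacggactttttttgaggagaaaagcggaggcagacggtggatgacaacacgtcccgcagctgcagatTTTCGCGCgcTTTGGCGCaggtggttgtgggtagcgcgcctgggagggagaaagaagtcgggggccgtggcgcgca
CDKN1B: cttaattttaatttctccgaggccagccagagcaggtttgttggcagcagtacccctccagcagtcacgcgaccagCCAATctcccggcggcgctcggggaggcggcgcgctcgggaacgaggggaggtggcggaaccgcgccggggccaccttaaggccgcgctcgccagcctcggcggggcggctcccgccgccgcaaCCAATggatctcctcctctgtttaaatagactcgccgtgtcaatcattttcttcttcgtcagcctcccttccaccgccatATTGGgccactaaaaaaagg

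The CDK1 window held 3 CHR matches, 2 CCAAT matches and 1 E2F match. The CCNB2 window held 4 CCAAT matches and 1 CHR match, whose first base lay 29 bases before the start. CDKN3 held 1 CHR and 2 CCAAT matches. RBL1 held 2 E2F matches next to each other, at 26 and 16 bases before the start, and neither of the other motifs. CDKN1B held 3 CCAAT matches and neither of the others. The windows of CCNA2, CCNB1, SKP2, CDK6 and CDK5, also called higher but not shown, held neither a CHR nor an E2F match. Windows were at hand for 34 of the 43 genes, 13 of those called higher and all 4 called lower. At least 1 window held a CHR match in 6 of the 13 (46.2%), in none of the 4, in 3 of the 17 not called (17.6%), and in 15.9% of 15842 protein-coding genes with a window. Genes with several annotated starts had more windows in which to match. TFDP2, with 3 windows, counts among the 6 through later starts only, and the window of its most upstream start held no CHR match. An E2F match was found in 3 of the 13 (23.1%: CDK1, E2F2 and RBL1), in none of the 4, in 3 of the 17 (17.6%: E2F1, E2F3 and TFDP1), and in 5.40% of the protein-coding genes. CCAAT was found in 8 of the 13 (61.5%), in 1 of the 4, in 8 of the 17 (47.1%), and in 42.1%. A match describes the letters in these windows and is not evidence of a bound site. Only these exact letters were searched. A window without a match, such as that of CCNA2 or CCNB1, may still hold an element in another spelling. The single RB1 window lies at an annotated start within the gene rather than at its first one, so it says nothing about the main promoter.

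The cyclins and kinases of G1 differed less. CCND1, the main D-type cyclin of epithelial cells, was 14.4 in the parental line and 13.7 in the resistant line, a difference of -0.76. CCND3 was 6.31 and 6.21 (-0.10), and CCND2 was under the floor in both lines (4.09 and 4.25). No D-type cyclin was called. The E-type cyclins, which act at the entry into S phase, both had positive differences just short of the threshold. CCNE1 was 7.58 and 8.46 (0.89), and CCNE2 was 6.93 and 7.91 (0.985). Their kinase, CDK2, was 9.20 and 10.2 (0.987), also not called. CCNE2 passed the threshold under quantile normalization (1.02), and CDK2 passed under quantile normalization (1.03) and loess centring (1.01). CDK4 was 12.9 and 13.4 (0.47). CDK6, the other partner of the D-type cyclins, was called higher at 9.05 and 10.2 (1.15). CDK6 lies on chromosome 7, where 50 neighbouring genes on each side had a median difference of 0.56, and its difference less that median was 0.59, under the threshold.

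**Figure D2:**
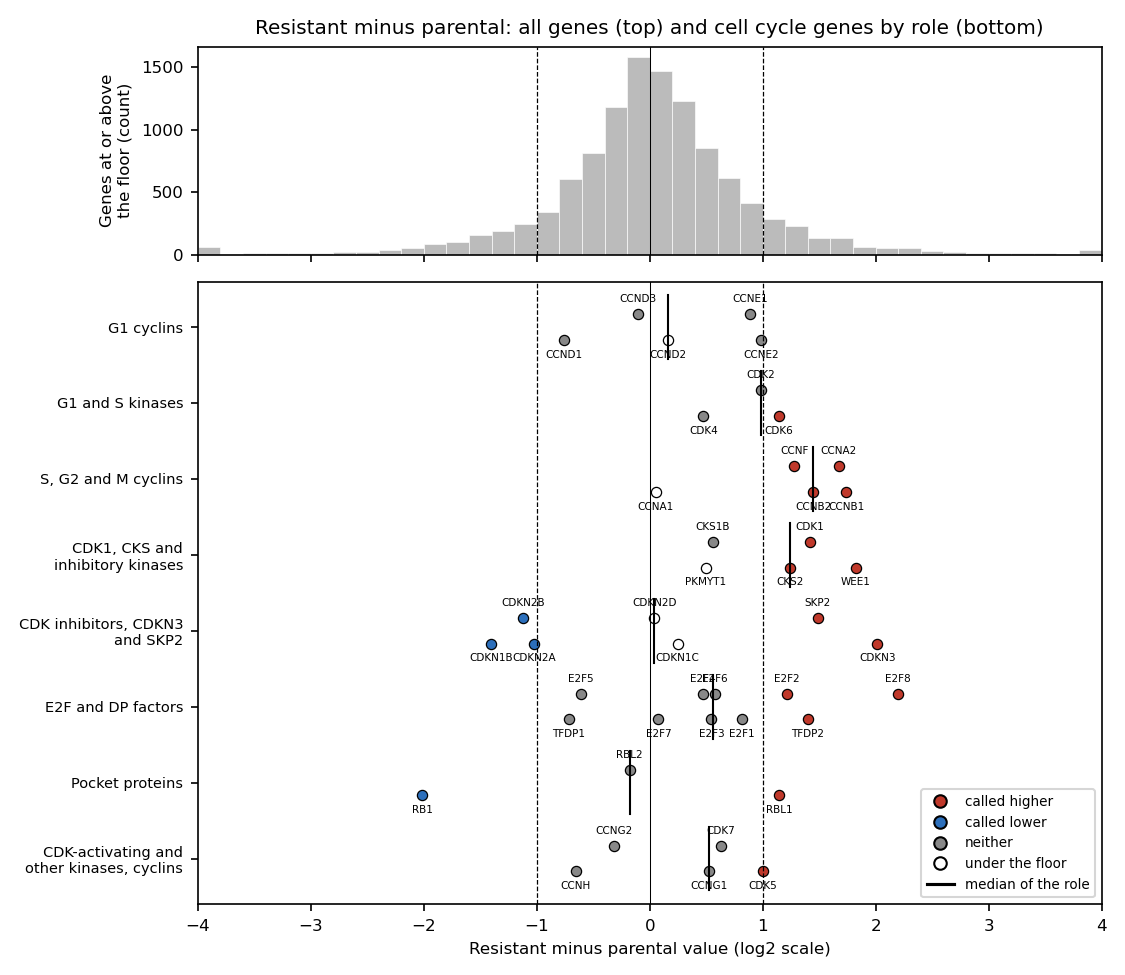
Top, histogram of the difference (resistant minus parental, log2 scale) of the 11205 genes that reached the floor, with differences beyond 4 in either direction counted in the end bars. Bottom, the 43 genes by role, where colour marks the call, open circles lie under the floor, black bars are role medians and dashed lines mark differences of 1 and -1. The cyclins of S, G2 and M have a median of 1.45 and those of G1 a median of 0.16.

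CDK inhibitors and the genes that act on them split into both directions. CDKN1B encodes p27, a CIP/KIP inhibitor of cyclin E and cyclin A complexes. It was 9.34 in the parental line and 7.93 in the resistant line, a difference of -1.41. The 100 genes around it on chromosome 12 had a median of -0.12, but those closest to it were mixed. Of the 10 nearest, 3 were at -1 or below, among them MANSC1 (-1.55) and EMP1 (-1.86), which were lower than CDKN1B, and their median was -0.30. CDKN1B was called lower under all 6 rescalings and position corrections, with values from -1.42 to -1.29. SKP2, the F-box protein that marks p27 for destruction, was called higher at 9.03 and 10.5 (1.49). SKP2 acts on the p27 protein, which was not measured. CDKN3 carries an inhibitor's name but encodes a phosphatase that acts on CDKs and is itself highest in dividing cells. It was 9.69 and 11.7, a difference of 2.01, in a stretch of chromosome 14 whose neighbouring genes had a median of -0.15.

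The INK4 inhibitors that reached the floor were lower together with the genes around them. CDKN2A, which encodes p16 and, from another reading frame, ARF, was 7.83 in the parental line and 6.81 in the resistant line, a difference of -1.02. CDKN2B, which encodes p15 and lies beside it on chromosome 9, was 8.74 and 7.62 (-1.12). Both were called lower. They are close paralogues, so their rows may share signal, and neither row separates the transcripts of the locus. Neighbouring genes at the floor or above, 88 around CDKN2A and 89 around CDKN2B, had medians of -0.93 and -0.96. MTAP, an adjacent gene of polyamine metabolism chosen after its values were seen, differed by -1.03. Less these medians, CDKN2A differed by -0.09 and CDKN2B by -0.16, and neither was called. The chromosome as a whole had a median of -0.11. The other INK4 gene measured, CDKN2D, was under the floor in both lines (5.59 and 5.64), as did the CIP/KIP gene CDKN1C (4.85 and 5.10). CDKN1A, which encodes p21 and is the third CIP/KIP gene, was 7.39 and 7.05, a difference of -0.34 that was not called.

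Among the pocket proteins, RB1 and RBL1 were called in opposite directions. RB1, which restrains the activating E2F factors, was 11.7 in the parental line and 9.65 in the resistant line, a difference of -2.01, the lowest of the 43 and 248th from the lowest of the 11205 genes that reached the floor. RB1 is a chromosome 13 gene; that chromosome had a median of -1.09, and the 100 genes around it had a median of -1.13. Of its 10 nearest neighbours, 6 were at -1 or below and the lowest was -1.80, so RB1 lay below each of them. Its difference was -0.92 less the chromosome median and -0.88 less that of the 100 neighbours, under the threshold in both cases. RBL1 (p107), which is itself an E2F target, was 9.19 and 10.3, a difference of 1.15. RBL2 (p130), the pocket protein of resting cells, was 10.9 and 10.7 (-0.18), not called.

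**Figure D3:**
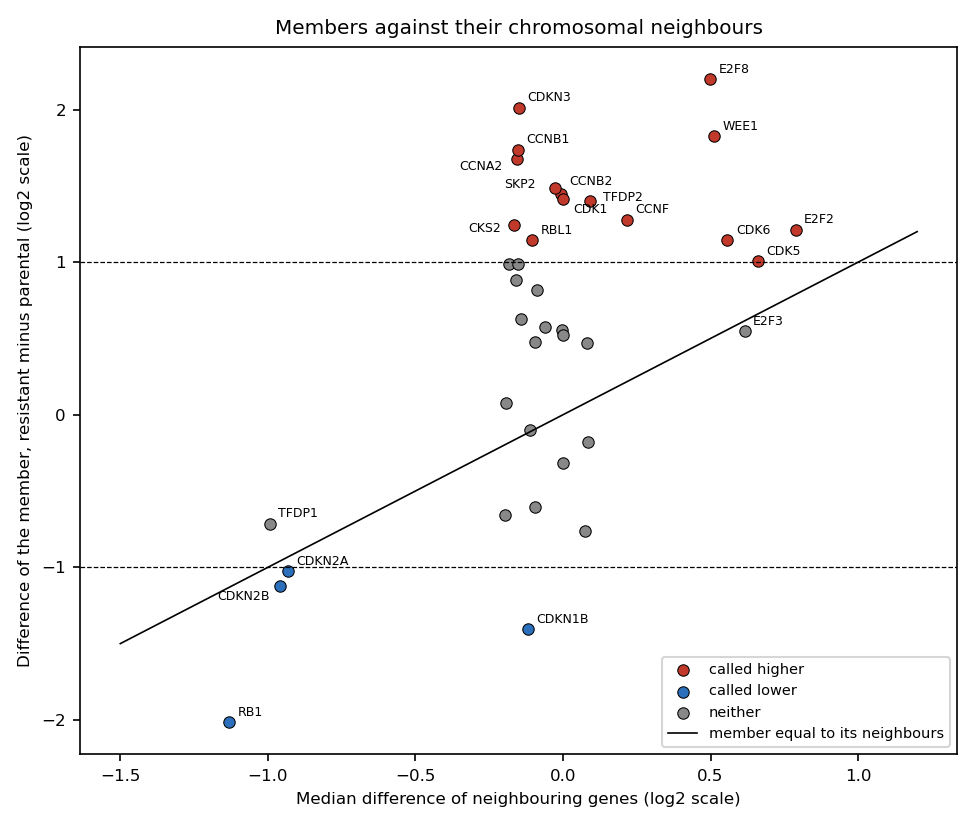
Difference of each of the 38 genes that reached the floor (vertical axis, resistant minus parental, log2 scale) against the median difference of up to 50 neighbouring protein-coding genes on each side (horizontal axis, log2 scale). The solid line marks a gene equal to its neighbours and dashed lines mark 1 and -1. CDKN2A and CDKN2B lie close to the solid line, while CDKN1B (-1.41) sits below a neighbour median of -0.12.

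Of the 10 E2F factors and DP partners, 3 were called higher and 7 were not called, with the highest difference in an atypical repressor. All 10 reached the floor, where the background is 9.58% higher. E2F8, which binds DNA without a DP partner and represses E2F targets late in S phase, was 7.64 in the parental line and 9.84 in the resistant line. Its difference of 2.20 was the highest of the 43 and ranked 184th from the highest of the 11205 genes that reached the floor. The genes around it on chromosome 11 had a median of 0.50, and it remained called at 1.70 less that median. Its closest relative, E2F7, was 8.495 and 8.57, a difference of 0.08. Of the 10 nearest neighbours of E2F7 on chromosome 12, 7 were at -1 or below, while the 100 around it had a median of -0.19.

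The activating factors are E2F1, E2F2 and E2F3. E2F2 alone was called higher, from 5.16 on the parental array, under the floor, to 6.37 on the resistant array, at least 1.496-fold against the floor. Its neighbours on chromosome 1 had a median of 0.79, and less that median it differed by 0.43 and was not called. E2F1 was 7.501 and 8.32 (0.82) and E2F3 was 6.999 and 7.55 (0.55), with neighbours of E2F3 at a median of 0.62. The factors that repress together with pocket proteins, or without them in the case of E2F6, were not called. E2F4 was 10.7 and 11.2 (0.47), E2F6 7.01 and 7.59 (0.58) and E2F5 7.54 and 6.93 (-0.61). The DP partners went apart. TFDP2 was called higher at 8.97 and 10.4 (1.40), in a region with a median of 0.09. TFDP1 was 9.55 and 8.84, a difference of -0.71. TFDP1 lies on chromosome 13 as RB1 does, and less the chromosome median its difference was 0.38.

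The CDK-activating kinase, which phosphorylates the cell cycle CDKs and also serves transcription, gave no call. CDK7, its catalytic subunit, was 9.66 and 10.3 (0.63), and its cyclin, CCNH, was 8.91 and 8.26 (-0.66). CDK5, a kinase best known from neurons, was 7.04 and 8.05, a difference of 1.005 that was called higher by a narrow margin. CDK5 lies on chromosome 7, and its difference was 0.34 less the median of its neighbours and 0.97 with loess centring. The G-type cyclins are linked to cell cycle arrest rather than to progression. CCNG1, a target of p53, was 10.8 and 11.4 (0.52), and CCNG2, which FOXO factors induce in resting cells, was 7.08 and 6.77 (-0.31). Neither was called.

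Correction for chromosomal neighbours ended some calls and left others in place. Less the median of neighbouring genes, 12 of the 15 genes called higher passed the threshold with the same sign, among them all 4 of the cyclins of S, G2 and M that had been called. CDK6, CDK5 and E2F2 did not, and CCNE1 (1.04), CCNE2 (1.17) and CDK2 (1.14) passed in addition. Of the 4 genes called lower, CDKN1B alone passed (-1.29). The share of all genes that pass after this correction was not computed, so these counts have no background beside them.

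Genes downstream of this machinery were called higher in large part, against a background of 9.58% higher among genes that reached the floor, as all those of the next 3 lists did. Of 23 measured G1/S genes that E2F factors are known to switch on, 17 were called higher and the other 6 were not called, and all 23 had a positive difference, with a median of 1.47. Of 23 measured G2/M genes, 21 were called higher and 2 neither; their median difference was 1.55. The factors that switch on the second wave were among the highest. FOXM1 was 9.63 in the parental line and 11.8 in the resistant line (2.20). MYBL2, which encodes B-MYB, was 8.95 and 11.1 (2.15), and MYBL1 was called higher from a parental value under the floor, at least 2.57-fold. MYBL1 has another row, and with the mean of its rows it was not called. The constant MuvB subunits, on which B-MYB and FOXM1 assemble, were not called. In this list of 8 measured genes, 3 were called higher, or 2 with the mean of the rows. LIN9 (-0.12), LIN37 (-0.22), LIN52 (0.20), LIN54 (0.20) and RBBP4 (0.72) were its 5 members that were not called. These lists were chosen with earlier results of these data known, and their direction is not independent of the counts above.

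**Figure D4:**
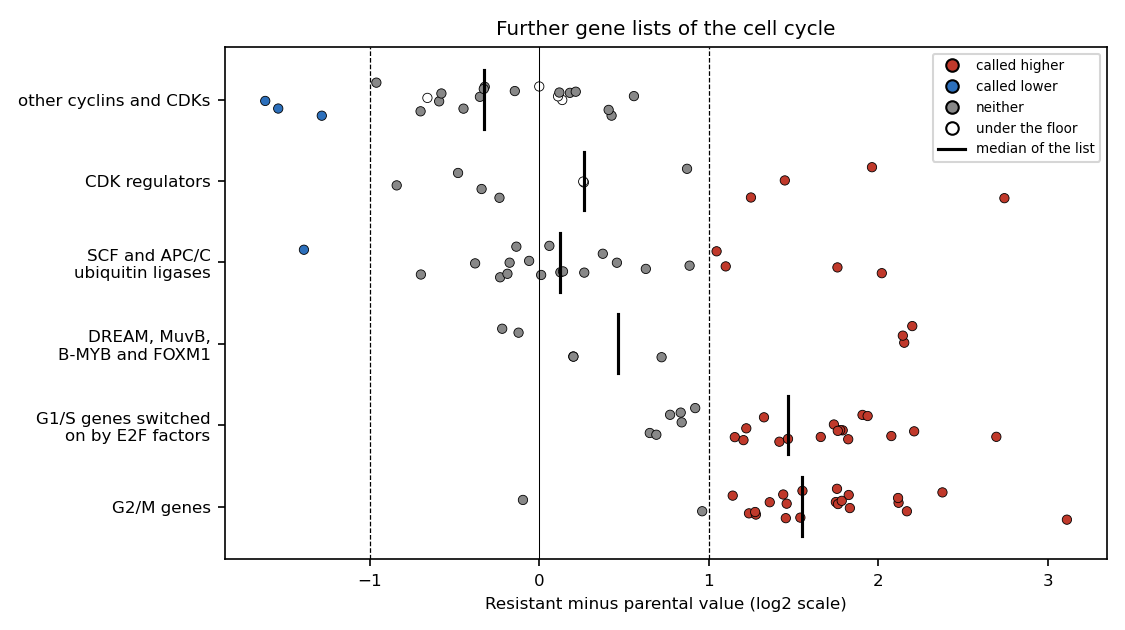
Difference (resistant minus parental, log2 scale) of each measured gene of 6 further lists of the cell cycle, with black bars at list medians, open circles under the floor and dashed lines at 1 and -1. Vertical scatter within a list has no meaning. The G1/S and G2/M lists lie almost wholly to the right (medians 1.47 and 1.55), and the other cyclins and CDKs have a median of -0.32.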

How the data were processed

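Total RNA of each culture was hybridised to 1 array, so there were 2 samples, 1 per group. The authors deposited 1 table of 70523 rows on a log scale whose base is unstated and was taken as log2. The submitters' processing notes name Affymetrix Expression Console; its version, algorithm, normalization step and build are, however, not given in the sources used here. A 16-bit scanner cannot give plain log2 values over 16, which 650 parental and 693 resistant rows held, so a difference of 1 need not be exactly 2-fold in brightness.

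Rows with 1 symbol in the platform annotation (23781; 1543 had several and 45199 were not listed) were named through RefSeq identifiers (21497), symbols (1974) or synonyms (310). The row with the highest mean was kept for each gene. RefSeq (GRCh38.p14) served for names, promoter windows and gene order; the rows' own build is unknown, so no row coordinates are given. Position medians used protein-coding genes that reached the floor. The genes named were all 43 members and, from the further lists, up to 4 called genes with the largest differences. LIN genes, RBBP4, CDKN1A, MTAP, MANSC1, EMP1 and UBE2C fall outside this rule, as do the genes named in the closing section without a call. No called gene of the G1/S and G2/M lists was named. Members and lists were chosen with earlier results of these data known. Alternatives were median, quantile and loess (span 0.3) scaling, the mean of a gene's rows, differences less chromosome or neighbourhood medians, and other floors and thresholds. Python 3.11.15, pandas 2.3.3 and statsmodels 0.14.6 were used.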

Additional observations from a re-analysis of the deposited data

How the results depend on the processing

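With 1 array per group no replicate could be left out. No paired analysis was possible because each group has 1 array and no test was made. The count of genes called higher, 15, was 15 to 17 under the 6 rescalings and position corrections, 13 with the floor at the 75th percentile, 20 at 1.5-fold and 2 at 4-fold (E2F8 and CDKN3). The count called lower, 4, was 2 less chromosome medians, 1 less neighbourhood medians, 8 at 1.5-fold and 1 at 4-fold (RB1). It was 3 with the floor at the 75th percentile, which CDKN2A did not reach. CDKN2A also missed the threshold under quantile normalization (-0.98). The median difference, 0.56, lay between 0.51 (the mean) and 0.72 (genes at or above the floor). Shares of all genes called were computed for the main rule only, so the counts under the other settings have no background beside them. No called gene changed sign. Each of the 43 genes has 1 row, so the mean of rows changed none of their values; among the further lists it ended the call of MYBL1 and moved the G1/S median from 1.47 to 1.42. Detection calls are not in the table, and the floor is no limit of detection.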

Other observations

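Of 22 measured cyclins and CDKs outside the core cycle, 18 reached the floor, and 3 were called lower and none higher, with a median difference of -0.32. The background among genes that reached the floor is 9.12% lower and 9.58% higher, so few calls of either kind separate this list from it. The 3 were CDK8 (-1.62), its paralogue CDK19 (-1.54) and their cyclin CCNC (-1.28), which form the kinase module of Mediator, a coactivator of transcription by RNA polymerase II. CDK8 was 9.91 in the parental line and 8.29 in the resistant line, CDK19 was 9.77 and 8.23, and CCNC was 9.14 and 7.85. CDK8 lies on chromosome 13 and the others on chromosome 6. Less the median of their neighbours, the differences were -0.54, -0.34 and -0.14, and none was called; CCNL2, a cyclin of splicing, passed instead (-0.70, or -1.01 so corrected). CCNT1 (-0.59) and CCNT2 (-0.96), cyclins of the elongation kinase, were not called.

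Among the ubiquitin ligases that destroy cyclins and inhibitors, 21 subunits and partners were measured, all at or above the floor. Against the same background, 4 were called higher and 1 was called lower (median 0.12). Those called higher were the E2 enzymes of the APC/C, UBE2S (2.02) and UBE2C (1.05), its mitotic activator CDC20 (1.76), and the SCF scaffold CUL1 (1.10, or 0.42 less the median of its neighbours on chromosome 7). CDC16, an APC/C subunit on chromosome 13, was called lower at -1.39 but differed by -0.59 once the median of its neighbours was taken off. FZR1, the G1 activator of the APC/C, differed by -0.14.

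FBXO5, an APC/C inhibitor on chromosome 6, and TTK, a checkpoint kinase on the same chromosome, differed by -0.06 and -0.10. Less the medians of their neighbours they differed by 0.93 and 0.76, under the threshold. MCM3, a helicase subunit also on chromosome 6, differed by 0.65, and by 1.28 less that median. These 3 genes were chosen after their values were seen. CABLES1, which links CDKs to tyrosine kinases, was called higher at 6.10 and 8.06 (1.96).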
